A study of Homo sapiens with 6 samples.

Results

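The TRIM28-SETDB1 silencing machinery was represented by 9 genes, taken by name from 48183 named genes of the count table: the imprint readers ZFP57 and ZNF445, the scaffold TRIM28 (KAP1), the methyltransferase SETDB1, the HP1 genes CBX1, CBX3 and CBX5, and the histone H3.3 chaperone pair ATRX and DAXX. All 9 had enough counts to be tested. Poly(A) RNA was sequenced from 4 naive and 2 primed libraries of human embryonic stem cells. The naive libraries came from cells induced with AICAR, an activator of AMPK (2 libraries, AICAR 1 and AICAR 2), with doxycycline-driven constitutively active p38 (CA-p38, 1 library), or with valproic acid, a histone deacetylase inhibitor (VPA, 1 library). The primed libraries were the parents, labelled as untreated: the EOS line for AICAR and VPA, and the CA-p38 EOS line for CA-p38. All 6 carried the EOS-GFP reporter. The CA-p38 parent also carried the doxycycline-switchable p38 construct with its mCherry marker, and its mCherry-positive cells had been purified after an exposure to doxycycline when the line was made. AICAR or doxycycline was given in PXGL medium with mouse feeder cells, and VPA in Ndiff227 with PD0325901 and LIF, without the other components of PXGL. The naive cultures were then kept in PXGL for further passages and sorted for CD75 and SUSD2, whereas the primed cells grew in StemFit AK02N without feeders and were not sorted. The labels give mouse feeders for the naive cultures, and the study also describes a later move of CA-p38 cells to PXGL without feeders. State, medium and sorting therefore cannot be told apart, and feeders may differ with them. The labels call the cells H1, while the text of the study names H9 for its EOS line.

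KRAB zinc finger proteins bind set DNA sequences and bring in TRIM28. TRIM28 recruits SETDB1, which trimethylates histone H3 at lysine 9 (H3K9me3), and HP1 proteins bind that mark. ZFP57 and ZNF445 guide this complex to the methylated copy of imprinted control regions, and ATRX with DAXX deposits H3.3 at silent repeats and telomeres.

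Of the 9 genes, ZFP57 rose about 220-fold in naive cells, CBX5 fell about 7-fold, and ATRX fell by a smaller amount that did not pass without 1 primed library. No change passed for the scaffold TRIM28, the enzyme SETDB1, the second imprint reader ZNF445, CBX1, CBX3 or DAXX. In counts, 1 gene was higher, 2 were lower and 6 did not pass (edgeR quasi-likelihood test, Benjamini-Hochberg adjusted p under 0.05 over 26497 names). Over all names tested, 53.1% passed, 26% higher and 27% lower in naive cells, so 3 of 9 is below that share. The median log2 fold change was −0.13 over the 9 genes and 0.11 over all names.

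The promoters of the gene that rose most and the gene that fell most are shown first, so that their sequence can be set beside their levels. Each window runs from 250 bases before to 50 bases after an annotated start (RefSeq, GRCh38.p14), in 5′ to 3′ direction of the gene. The ZFP57 window lies at chr6:29681103-29681402 on the minus strand and holds 20 CG pairs. The CBX5 window lies at chr12:54280073-54280372 on the minus strand and holds 25 CG pairs. It is the outermost annotated CBX5 window, and it also spans the start of HNRNPA1 on the opposite strand. Other CBX5 windows, at chr12:54259496-54259795 and chr12:54259537-54259836, hold 6 and 4 CG pairs and are not shown. The MEST window, at chr7:130491835-130492134 on the plus strand, shows the sequence that ZFP57 is known to recognise when methylated, and was chosen after its matches were seen. Capitals mark TGCCGC on either strand; 2 of the 3 matches at MEST overlap.

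ZFP57: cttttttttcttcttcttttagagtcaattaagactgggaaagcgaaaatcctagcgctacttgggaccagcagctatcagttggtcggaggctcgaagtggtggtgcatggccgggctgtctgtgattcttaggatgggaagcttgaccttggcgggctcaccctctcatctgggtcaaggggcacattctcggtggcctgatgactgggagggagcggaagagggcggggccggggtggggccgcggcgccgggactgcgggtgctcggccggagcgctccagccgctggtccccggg
CBX5: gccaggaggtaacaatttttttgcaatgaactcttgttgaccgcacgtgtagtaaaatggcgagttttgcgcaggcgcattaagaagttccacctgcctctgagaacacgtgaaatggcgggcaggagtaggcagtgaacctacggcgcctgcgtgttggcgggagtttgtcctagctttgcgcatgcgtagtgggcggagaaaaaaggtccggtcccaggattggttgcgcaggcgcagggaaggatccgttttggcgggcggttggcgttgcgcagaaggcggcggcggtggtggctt
MEST: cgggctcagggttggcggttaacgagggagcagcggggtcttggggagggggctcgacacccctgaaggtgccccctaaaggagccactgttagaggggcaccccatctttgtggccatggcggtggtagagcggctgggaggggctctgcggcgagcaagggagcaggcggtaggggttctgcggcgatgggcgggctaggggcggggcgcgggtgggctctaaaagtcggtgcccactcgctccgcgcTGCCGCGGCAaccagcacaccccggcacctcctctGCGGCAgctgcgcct

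Neither the ZFP57 nor the CBX5 window held the motif, and none of the 6 of 9 members matched to a window did (ZFP57, ZNF445, SETDB1, CBX1, CBX3 and CBX5). Among 20 genes of the imprinted list with a window, 14 (70.0%) held it in at least 1 window, against 19.5% of 27305 genes. Per window, 46.8% of their 47 windows held it, against 16.7% of all 35116 windows, and the listed genes had more windows each. Some listed windows repeat sequence: PLAGL1 and HYMAI share a window, as do SNRPN and SNURF, and those of MEG3 overlap. The motif contains a CG, and the median window held 18 CG pairs in the imprinted list against 14 over all windows. MEST, an imprinted gene expressed from the paternal copy, stood at 20.8 ± 7.60 CPM (counts scaled to library size; SD, n = 4) in naive cells and 74.5 ± 17.0 CPM (SD, n = 2) in primed cells. A match describes these letters only and is not a measured binding site.

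The libraries held 46823699 to 54277064 counts each, and a count of 0 allowed a level of up to 0.064 CPM (3 counts over the library total, counting error only). That limit was taken before the further scaling between libraries that the other levels received. In the check of the labels, 8 of 8 naive markers were higher and 7 of 7 primed markers lower in the naive libraries; SUSD2 among them was used for the sort. Of other cell types, 1 of 8 fibroblast markers was higher and 4 lower, with summed levels of 40.3 to 83.0 CPM in naive and 200 to 211 CPM in primed libraries. Of 5 trophoblast markers tested 3 were higher (summed level 11.7 to 13.8 against 4.08 to 4.99 CPM, CGB5 at 0 in every naive library). Of 7 hypoblast and endoderm markers 1 was higher and 5 lower (36.0 to 45.2 against 154 to 183 CPM), and of 6 neural markers 1 was higher and 2 lower (156 to 197 against 127 to 146 CPM). All 8 eight-cell markers were higher (153 to 216 against 1.51 to 1.78 CPM), although 6 of them were at 3 counts or fewer in each primed library. The part of any of these in the members' differences was not tested. The 2 AICAR libraries differed beyond sampling noise (chi-square of 21.1 per name over 24681 names), and were kept as separate samples. The study gives them as harvests of AICAR-converted cells at successive passages and does not state separate conversions. P-values therefore measure the spread between these 6 samples, which may in part be technical.

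**Figure D1:**
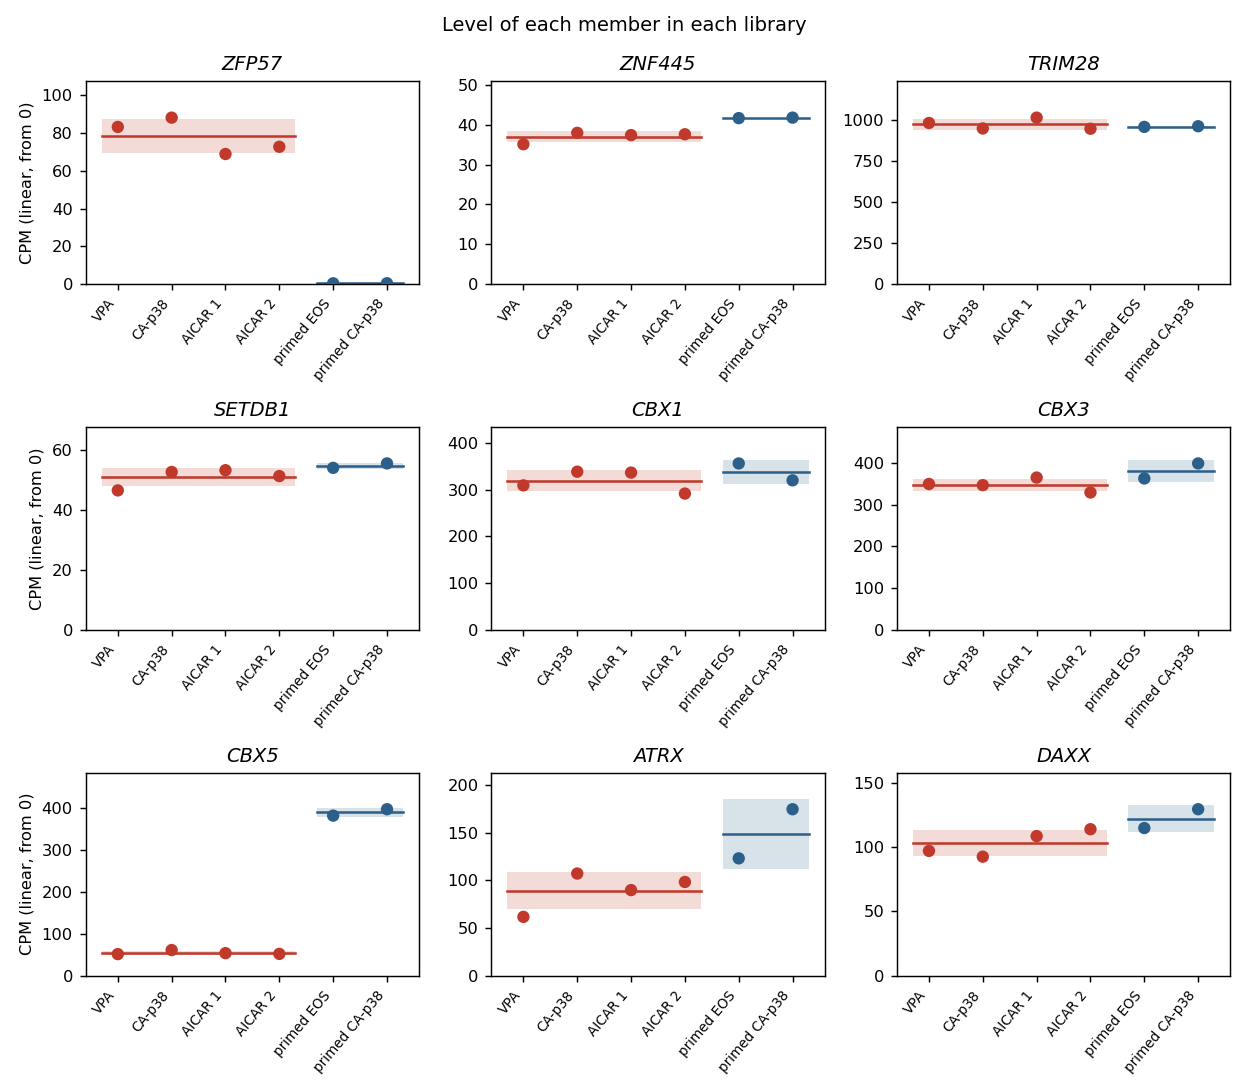
Level of each of the 9 genes (vertical axis, CPM on a linear scale from 0) in each library (horizontal axis); red points are naive and blue points primed libraries, lines are group means and bands 1 SD. ZFP57 and CBX5 separate the 2 states far beyond their spread, whereas TRIM28 stays between 948 and 1015 CPM in all 6 libraries.

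ZFP57, the KRAB zinc finger that keeps germline imprints through early development, had 83.3 CPM in the VPA, 88.2 CPM in the CA-p38, 68.9 CPM in the AICAR 1 and 72.8 CPM in the AICAR 2 library, against 0.343 CPM in the EOS parent and 0.368 CPM in the CA-p38 parent. The 4 naive libraries were all high, the primed libraries were both close to 0, and the groups did not overlap. The primed levels rested on 17 and 18 counts, above the limit of 3, whereas the naive libraries held 3616 to 4460 counts. The level was 78.3 ± 8.98 CPM (SD, n = 4) in the naive state against 0.356 ± 0.017 CPM (SD, n = 2) in the primed state, a 220-fold ratio of means. The fitted log2 fold change was 7.77 ± 0.24 (SE), with a 95% interval of 7.25 to 8.29 (edgeR quasi-likelihood test, Benjamini-Hochberg adjusted p = 3.5e-11). Of all names tested, 0.77% rose by at least as much. In bulk libraries, fewer cells of a type and less RNA per cell cannot be told apart.

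ZFP57 rose after each induction. Over its own parent, on the log2 scale with a prior count of 0.5, the difference was 7.88 in VPA, 7.87 in CA-p38, 7.61 in AICAR 1 and 7.69 in AICAR 2. The VPA and both AICAR values share the primed EOS library as control. Among the naive libraries the highest level was 1.28 times the lowest. The gene lies at chr6:29672483-29681155 on the minus strand (GRCh38, GENCODE 44, as for all positions of genes here), within the MHC region. The ZFP57 counts were spread over 8 identifiers of that name, from copies of the MHC region on alternative haplotypes, each holding 0.808% to 15.2% of the gene's counts, so the gene's level is seen only in their sum.

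ZNF445, the other imprint reader, stood at 35.2 CPM in VPA, 38.02 CPM in CA-p38, 37.5 CPM in AICAR 1 and 37.7 CPM in AICAR 2, against 41.7 CPM in the EOS parent and 41.9 CPM in the CA-p38 parent. Each primed library was above each naive library, by a small step. The fitted log2 fold change was −0.17 ± 0.11 (SE), with an interval of −0.42 to 0.08 (edgeR, Benjamini-Hochberg adjusted p = 0.223). The gene lies at chr3:44431705-44477670 on the minus strand. The 2 identifiers of ZNF445 shared its counts almost evenly.

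Set against each other per kb of exon, the 2 readers changed places. ZFP57 was above ZNF445 by 4.25 ± 0.18 (SD, n = 4) on the log2 scale in naive cells, and below it by a log2 ratio of −3.70 ± 0.07 (SD, n = 2) in primed cells. The ratio thus changed 247-fold, and the groups did not overlap. A two-sided exact permutation test over the 6 libraries gave p = 0.0667, the smallest that 15 possible splits allow, and 0.120 after Benjamini-Hochberg adjustment over 9 ratios. None of the 9 ratios could pass 0.05 in this design.

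TRIM28, the scaffold on which KRAB zinc finger proteins and SETDB1 meet, had the highest level per length of the 9 genes, and its coefficient of variation over the naive libraries, 3.299%, was the lowest. It had 983 CPM in VPA, 949 CPM in CA-p38, 1015 CPM in AICAR 1 and 948 CPM in AICAR 2, against 959 CPM in the EOS parent and 963 CPM in the CA-p38 parent. The primed values fell within the range of the naive ones. The log2 fold change was 0.02 ± 0.08 (SE), with an interval of −0.16 to 0.20 (edgeR, Benjamini-Hochberg adjusted p = 0.860). TRIM28 lies at chr19:58544064-58550722 on the plus strand. Its sign turned under 3 alternative settings and without either of 2 naive libraries, with values close to 0 each time.

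SETDB1, which writes H3K9me3 for TRIM28, had 46.6 CPM in VPA, 52.7 CPM in CA-p38, 53.3 CPM in AICAR 1 and 51.4 CPM in AICAR 2, against 54.1 CPM in the EOS parent and 55.6 CPM in the CA-p38 parent. The groups did not overlap, but they were close. The log2 fold change was −0.11 ± 0.11 (SE), with an interval of −0.35 to 0.14 (edgeR, Benjamini-Hochberg adjusted p = 0.452). SETDB1 lies at chr1:150926263-150964744 on the plus strand and overlaps CERS2 on the opposite strand by 4162 bases. CERS2 fell by 1.05 on the log2 scale (SE 0.13; edgeR, Benjamini-Hochberg adjusted p = 1.81e-05), and whether counting used strand is not given in the sources used here. The log2 ratio of TRIM28 to SETDB1 was 5.03 ± 0.10 (SD, n = 4) in the naive state against 4.91 ± 0.02 (SD, n = 2) in the primed state (exact permutation p = 0.200, adjusted p = 0.257 over the 9 ratios).

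**Figure D2:**
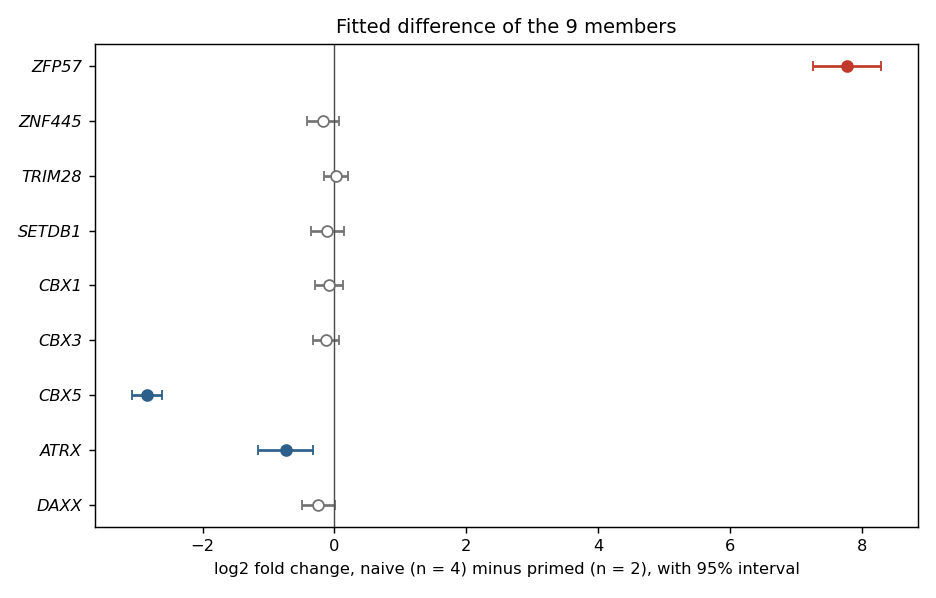
Fitted log2 fold change of each gene, naive minus primed (horizontal axis), with its 95% interval; filled red is higher and filled blue lower at an adjusted p under 0.05, open grey did not pass. The 6 open points lie between −0.25 and 0.02, while ZFP57 lies at 7.77, CBX5 at −2.84 and ATRX at −0.74.

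Of the HP1 genes, only CBX5 passed. CBX5, at chr12:54230942-54280133 on the minus strand, encodes HP1α, which concentrates in the heterochromatin around centromeres. It had 51.1 CPM in VPA, 60.8 CPM in CA-p38, 53.4 CPM in AICAR 1 and 51.6 CPM in AICAR 2, against 381 CPM in the EOS parent and 397 CPM in the CA-p38 parent. All naive libraries were low and both primed libraries high, without overlap. The means were 54.2 ± 4.47 CPM (SD, n = 4) and 389 ± 10.8 CPM (SD, n = 2), 7.18-fold lower in naive cells. The log2 fold change was −2.84 ± 0.10 (SE), with an interval of −3.07 to −2.62 (edgeR, Benjamini-Hochberg adjusted p = 2.07e-10), and 5.54% of all names tested fell by at least as much.

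The fall of CBX5 below its own parent was −2.90 in VPA, −2.71 in CA-p38, −2.84 in AICAR 1 and −2.89 in AICAR 2 on the log2 scale. Every induced library was thus far below its parent. Proliferation genes moved the same way: 9 of 10 were lower in naive cells and 1 did not pass, with a summed level of 1766 to 1977 CPM against 3112 to 3537 CPM and a median log2 fold change of −0.87. Their part in the fall of CBX5 was not tested.

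CBX1, at chr17:48070052-48101478 on the minus strand, encodes HP1β. It stood at 310 CPM in VPA, 339 CPM in CA-p38, 337 CPM in AICAR 1 and 292 CPM in AICAR 2, against 357 CPM in the EOS parent and 320 CPM in the CA-p38 parent. The groups overlapped. Its log2 fold change was −0.08 ± 0.10 (SE), with an interval of −0.30 to 0.13 (edgeR, Benjamini-Hochberg adjusted p = 0.504), and its sign turned with library totals as scaling (0.012). CBX1 was below the parent in the 3 libraries of the EOS line and above it in that of the CA-p38 line; the test of that difference gave 0.27 ± 0.21 (SE) on the log2 scale (edgeR interaction, Benjamini-Hochberg adjusted p = 1).

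CBX3, at chr7:26201162-26213607 on the plus strand, encodes HP1γ, which is also found over transcribed genes. It had 349 CPM in VPA, 346 CPM in CA-p38, 365 CPM in AICAR 1 and 329 CPM in AICAR 2, against 362 CPM in the EOS parent and 398 CPM in the CA-p38 parent. AICAR 1 exceeded primed EOS, so the groups overlapped. The log2 fold change was −0.13 ± 0.09 (SE), with an interval of −0.33 to 0.07 (edgeR, Benjamini-Hochberg adjusted p = 0.248). Pseudogenes named after the HP1 genes held at most 0.565% of the counts of their parent gene in any library.

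The make-up of the HP1 transcripts differed accordingly. Per kb of exon, CBX5 made up 1.92% in VPA, 2.16% in CA-p38, 1.87% in AICAR 1 and 2.05% in AICAR 2, against 11.7% in the EOS parent and 12.3% in the CA-p38 parent. CBX1 took 58.2 ± 1.05% (SD, n = 4) in the naive state against 51.5 ± 3.33% (SD, n = 2) in the primed state, and CBX3 took 39.8 ± 1.12% and 36.5 ± 2.86%. The CBX5 and CBX1 shares did not overlap between the states and the CBX3 shares did. The exact permutation p was 0.0667 for the first 2 shares and 0.133 for CBX3, with adjusted p of 0.120 and 0.200. The summed HP1 level was 167 to 190 CPM per kb in naive and 214 to 217 CPM per kb in primed libraries.

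**Figure D3:**
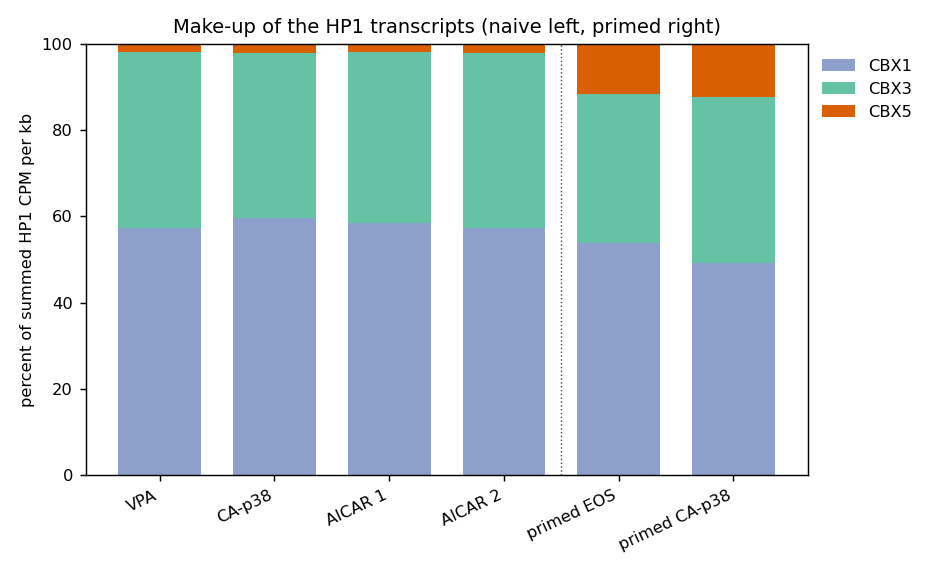
Share of CBX1, CBX3 and CBX5 in their summed level (vertical axis, percent of CPM per kb of merged exons) in each library (1 bar each); the dotted line divides the 4 naive from the 2 primed libraries. CBX5 takes 1.87% to 2.16% of each naive bar and 11.7% to 12.3% of each primed bar. The shares depend on the length chosen.

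ATRX, a chromatin remodeller that works with DAXX at repeats, had the highest coefficient of variation of the 9 genes over the naive libraries, 22.1%. It had 61.6 CPM in VPA, 107 CPM in CA-p38, 89.8 CPM in AICAR 1 and 98.3 CPM in AICAR 2, against 123 CPM in the EOS parent and 175 CPM in the CA-p38 parent. VPA was the lowest, primed CA-p38 the highest, and the groups did not overlap. The log2 fold change was −0.74 ± 0.19 (SE), with an interval of −1.16 to −0.32 (edgeR, Benjamini-Hochberg adjusted p = 0.00525). Without the primed CA-p38 library it was −0.46 and did not pass (edgeR, Benjamini-Hochberg adjusted p = 0.126), while without the primed EOS library it was −0.98.

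Over its own parent, ATRX was lower by a log2 difference of −0.998 in VPA, −0.71 in CA-p38, −0.46 in AICAR 1 and −0.32 in AICAR 2. The 2 primed parents themselves differed by 0.51 on that scale, which is more than the fall in either AICAR library. ATRX lies at chrX:77504880-77786233 on the minus strand. On the X chromosome the median log2 fold change of 448 genes averaging at least 5 CPM was −0.50, the lowest of the chromosomes measured; its part in the fall of ATRX was not tested.

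DAXX, the H3.3 chaperone that ATRX brings to chromatin, stood at 97.2 CPM in VPA, 92.7 CPM in CA-p38, 109 CPM in AICAR 1 and 114 CPM in AICAR 2, against 115 CPM in the EOS parent and 130 CPM in the CA-p38 parent. The groups met without overlapping, since AICAR 2 was just below primed EOS. The log2 fold change was −0.25 ± 0.12 (SE), with an interval of −0.50 to 0.00418 (edgeR, Benjamini-Hochberg adjusted p = 0.0883). DAXX lies at chr6:33318558-33323016 on the minus strand. Its counts lay in 5 identifiers of the MHC haplotypes, with 17.02% to 23.98% each. The log2 ratio of ATRX to DAXX per kb was −3.12 ± 0.36 (SD, n = 4) in the naive state against −2.62 ± 0.23 (SD, n = 2) in the primed state, with overlapping groups (exact permutation p = 0.267, adjusted p = 0.3).

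The groups did not overlap for 1 gene that was higher (ZFP57) and 5 that were lower (ZNF445, SETDB1, CBX5, ATRX and DAXX) in naive cells. That count holds with the scaling used here. With library totals as scaling, the groups of ZNF445, SETDB1 and DAXX overlapped. Over all names tested, 64.9% did not overlap, and the 9 genes, of which 3 overlapped, were close to that share in total. By direction, 32.9% of all names were higher and 32.1% lower, so 5 of 9 is above and 1 of 9 below those shares. Of the 5 lower genes, only CBX5 and ATRX passed the edgeR test. With 4 naive libraries against 2 primed ones, such a split alone cannot pass the exact test.

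Whether the change of state differed between the EOS and the CA-p38 EOS line was tested for each gene. None of the 9 passed (edgeR interaction test, Benjamini-Hochberg adjusted p = 1 for each), none had an unadjusted p under 0.05, and the lowest was 0.138 for DAXX. Over all names, 0.00377% passed, or 1 name. The intervals stayed wide for ZFP57 (−0.94 to 1.21 on the log2 scale) and for ATRX (−0.94 to 0.66), so differences of that size between the lines could not be seen with 1 naive CA-p38 library.

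Levels of different genes were compared per length. In naive cells the mean level per kb of merged exons was 226 CPM for TRIM28, 105 CPM for CBX1, 71.7 CPM for CBX3, 37.6 CPM for ZFP57 and 33.5 CPM for DAXX. SETDB1 followed with 6.91, ATRX with 3.92, CBX5 with 3.60 and ZNF445 with 1.96 CPM per kb. The ranges over libraries overlapped for the neighbours ZFP57 and DAXX and for ATRX and CBX5, and not for the others. ZFP57 stood beside DAXX and above SETDB1 in naive cells.

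In primed cells TRIM28 (223 CPM per kb), CBX1 (111), CBX3 (78.6) and DAXX (39.7) led, followed by CBX5 with 25.9, SETDB1 with 7.44, ATRX with 6.55 and ZNF445 with 2.21 CPM per kb. ZFP57 was last with 0.171 CPM per kb. SETDB1 and ATRX overlapped in range, and the other neighbours did not. With the length of the longest or of the canonical transcript, CBX3 came before CBX1 in both states, DAXX came before ZFP57 in naive cells and ATRX before SETDB1 in primed cells, so these orders depend on the length chosen.

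**Figure D4:**
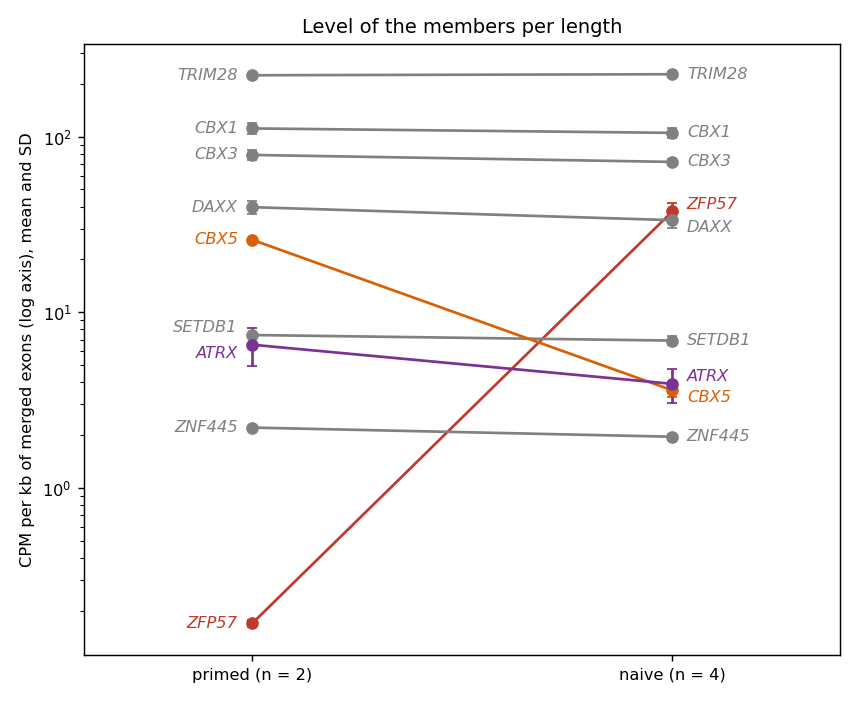
Mean level of each gene in primed and naive cells (vertical axis, CPM per kb of merged exons on a log scale; bars are SD over 2 primed and 4 naive libraries). The lines of 6 genes run nearly level, ZFP57 climbs from 0.171 to 37.6 and CBX5 drops from 25.9 to 3.60 CPM per kb.

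The partners of these genes were then counted in lists. Beside the background of 26% higher and 27% lower, the relatives of TRIM28 (TRIM24, TRIM33 and TRIM66) had none higher and 2 of 3 lower, with a median of −0.96. TRIM24, a reader of histone marks, fell from 259 ± 27.4 CPM (SD, n = 2) to 70.8 ± 11.3 CPM (SD, n = 4), a log2 change of −1.87 ± 0.14 (SE; edgeR, Benjamini-Hochberg adjusted p = 1.07e-07). TRIM66 fell from 4.69 ± 0.154 to 2.41 ± 0.811 CPM, by 0.96 on the log2 scale (adjusted p = 0.0257). Without either primed library the list had 1 call, since TRIM66 no longer passed.

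Among 7 partners of SETDB1 and HUSH genes, 1 was higher, 1 lower and 5 did not pass (median −0.19). The HUSH complex spreads H3K9me3 over young retroelements. Its chromodomain subunit MPHOSPH8 rose from 69.9 ± 6.84 to 118 ± 8.59 CPM (log2 change 0.76 ± 0.11 SE; edgeR, Benjamini-Hochberg adjusted p = 0.000105). MORC2, the ATPase that compacts HUSH targets, fell from 111 ± 13.5 to 45.5 ± 2.76 CPM (−1.29 ± 0.12; adjusted p = 6.90e-07).

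Of 6 other H3K9 methyltransferases, 1 was higher and 5 were lower in naive cells, and none was left without a call (median −0.64). SUV39H2, which methylates H3K9 at constitutive heterochromatin, fell from 46.9 ± 10.7 to 14.0 ± 0.977 CPM (log2 change −1.74 ± 0.16 SE; edgeR, Benjamini-Hochberg adjusted p = 6.34e-07). SETDB2, a relative of SETDB1, rose from 9.83 ± 2.37 to 14.6 ± 1.56 CPM (0.57 ± 0.19; adjusted p = 0.0235).

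Of 11 partners of HP1, 2 were higher, 8 lower and 1 did not pass (median −0.64). CHD4, the ATPase of the NuRD complex, fell from 645 ± 40.6 to 254 ± 18.9 CPM (log2 change −1.34 ± 0.10 SE; edgeR, Benjamini-Hochberg adjusted p = 1.12e-07), and the HP1-binding LRIF1 rose from 18.4 ± 1.19 to 26.9 ± 2.96 CPM (0.55 ± 0.15; adjusted p = 0.00802). Of 8 genes of H3.3 and its chaperones, none was higher, 6 were lower and 2 did not pass (median −0.60). ASF1A, a chaperone that hands histones on, fell by 1.10 on the log2 scale (SE 0.13; adjusted p = 1.16e-05) and UBN1, of the HIRA complex, by 0.34 (SE 0.11; adjusted p = 0.0211).

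In the list of PML bodies and SUMO, the site where DAXX gathers and the modifier it binds, 1 of 9 was higher, 5 were lower and 3 did not pass (median −0.37). SENP1, a SUMO protease, fell from 51.6 ± 3.58 to 15.3 ± 2.23 CPM (log2 change −1.76 ± 0.15 SE; edgeR, Benjamini-Hochberg adjusted p = 5.05e-07), and SP100, a component of PML bodies, rose from 4.17 ± 0.121 to 7.70 ± 2.28 CPM (0.89 ± 0.27; adjusted p = 0.0168).

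The KRAB zinc fingers that act on retroelements are partners of TRIM28 as ZFP57 is. Of 10, 8 were higher, 1 was lower and 1 did not pass, with a median of 1.03. ZNF534 rose from 0.0712 ± 0.015 to 35.3 ± 3.16 CPM. Its log2 change was 8.91 ± 0.44 (SE), with an interval of 7.95 to 9.87 (edgeR, Benjamini-Hochberg adjusted p = 7.87e-11). In the EOS parent its level of 0.0606 CPM stood for 3 counts, the limit used here. The CA-p38 parent was little above that limit, at 0.0817 CPM. The size of this rise therefore rests on very few primed counts. ZNF202 fell from 51.0 ± 8.70 to 17.6 ± 1.10 CPM (−1.54 ± 0.14; adjusted p = 7.62e-07).

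Of 10 other genes for the upkeep of imprints, 4 were higher, 4 lower and 2 did not pass (median −0.15). NLRP7, a maternal-effect gene whose loss in mothers disturbs imprints, rose from 2.37 ± 1.24 to 4376 ± 430 CPM (log2 change 10.85 ± 0.21 SE; edgeR, Benjamini-Hochberg adjusted p = 3.5e-11). CTCFL, a germline relative of CTCF, fell from 4.75 ± 1.08 to 1.23 ± 0.557 CPM (−1.95 ± 0.38; adjusted p = 0.000597).

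The listed imprinted transcripts were evenly divided: of 29 tested, 13 were higher, 13 lower and 3 did not pass (median −0.28). Which of their control regions ZFP57 or ZNF445 binds was not measured here. PEG3, a paternally expressed zinc finger gene, had no count in either primed library and 25.6 ± 8.35 CPM (SD, n = 4) in naive cells, at least 417-fold higher against the limit of 3 counts in a library. PEG10, a paternally expressed gene derived from a retrotransposon, fell by 2.18 on the log2 scale (SE 0.15; edgeR, Benjamini-Hochberg adjusted p = 4.19e-08). Levels alone do not give the number of active copies.

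**Figure D5:**
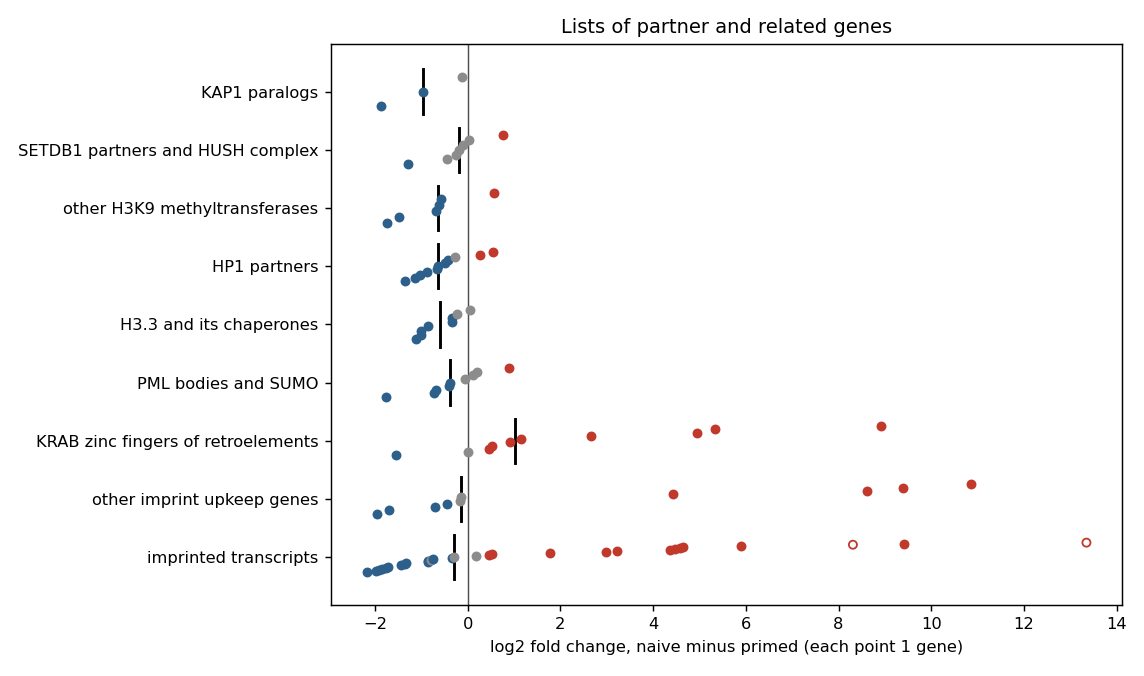
Log2 fold change, naive minus primed (horizontal axis), of each gene (point) in 9 lists; red is higher and blue lower at an adjusted p under 0.05, grey did not pass, black bars are medians. Open points are PEG3 and ZIM2, at 3 counts or fewer in each primed library, where the fitted value is no bound; only the KRAB list has a median above 0, at 1.03.

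Last, the genes closest in pattern to the imprint readers and the scaffold were sought among 12603 genes averaging at least 5 CPM, by the root mean square distance of centred log2 CPM over the 6 libraries. CRIP1 (distance 0.131), ZNF676 (0.234) and MYO1G (0.252) came nearest to ZFP57, with log2 fold changes of 7.65, 7.93 and 7.60. ZNF676 is itself a KRAB zinc finger gene. For ZNF445 they were RRBP1 (0.022), BAG6 (0.027) and TM9SF3 (0.030), and for TRIM28 PA2G4 (0.020), PEBP1 (0.028) and STIP1 (0.030).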

How the data were processed

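Poly(A) RNA of 6 libraries was sequenced. According to the study's methods, the authors trimmed reads (Trim Galore 0.4.4 with cutadapt 1.15), mapped them with Bowtie2 to Ensembl cDNA and noncoding RNA of GRCh38, and kept alignments of mapping quality 1 or more. The deposited values are raw counts per Ensembl gene identifier. Left aside were 23 columns from other studies and 26 spike-in sequences (0 or 1 count a library). Counts of 61196 identifiers were summed by name (6932 names had several).

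The 4 naive libraries were tested against the 2 primed ones in edgeR 4.0.16 (R 4.3.3; TMM scaling, expression filter, quasi-likelihood test, Benjamini-Hochberg adjustment over 26497 names). CPM are TMM-scaled. Alternatives included DESeq2 1.42.0 and limma-voom (limma 3.58.1). Exon lengths and positions came from GENCODE 44 (GRCh38), and promoter windows from RefSeq. The fit was tested on simulated data with 200 changed genes. In the real data 14058 of 26497 names were called, so the simulation does not show how the scaling behaves when so many genes change. Depth was 46823699 to 54277064 counts a library. The 9 genes and the lists were chosen with earlier results of these data known. Text names every member, of each list the called genes with the highest and lowest fold change, and the 3 genes nearest in pattern to ZFP57, ZNF445 and TRIM28.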

Additional observations from a re-analysis of the deposited data

How the results depend on the processing

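Under 15 alternatives (other scalings, tests, filters, identifiers not summed, AICAR libraries merged into 1, a parental line term, and omission of each library), ZFP57 kept a log2 fold change of 7.69 to 7.87 and CBX5 one of −2.92 to −2.74, and each passed in all 15. ATRX passed in 14 of 15. The 6 others passed in none. The count of members lower in naive cells ranged from 1 to 2 over the 6 fits that left out a library, with 1 only without primed CA-p38. The fold change of TRIM28 turned to −0.031 with median-ratio scaling and with DESeq2 (−0.031), and to −0.0051 without a filter beyond 1 count, and ranged from −0.014 to 0.036 when a library was left out. That of CBX1 turned to 0.012 with library totals. The log2 ratio of CBX1 to CBX3 differed by −0.099 to 0.192 when a library was left out, negative only without primed CA-p38. The cause was not tested. In a fit with 1 primed library, that library is assumed to vary like the naive ones. Without naive CA-p38 or a primed library, the test of state by parental line has no estimate and was not run. The canonical transcript length was chosen after seeing the data. A gene's length cancels from the difference between states of a log2 ratio, so the choice of length could not turn those differences. The HP1 shares can move with it. With the canonical length, naive minus primed was 4.22 percentage points for CBX1, 3.33 for CBX3 and −7.55 for CBX5. Names called numbered 11313 to 14332. The naive and primed samples share no replicate numbers in the labels, so no block by number was fitted; the fit with the parental line as a block, which matches each naive library to its parent, changed no member's call. Leaving out the primed CA-p38 or primed EOS library left 1 of 3 TRIM28 relatives called. With 2 primed libraries, the 95% intervals of the 6 genes that did not pass reached from −0.50 to 0.20 on the log2 scale.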

Other observations

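The genes beside the members were looked at after their values were seen. Of 18 nearest protein-coding neighbours, 17 had enough counts to test, and 3 were higher and 7 lower in naive cells, against 26% of all tested names called higher and 27% called lower. CBX5 starts 59 bases from HNRNPA1, an abundant RNA-binding protein gene on the opposite strand. HNRNPA1 stood at 2049 CPM in VPA, 1939 CPM in CA-p38, 1992 CPM in AICAR 1 and 1689 CPM in AICAR 2, against 3011 CPM in the EOS parent and 2713 CPM in the CA-p38 parent. It fell by 0.58 on the log2 scale (SE 0.10; edgeR, Benjamini-Hochberg adjusted p = 0.000194), beside a log2 fold change of −2.84 for CBX5; whether the 2 changes differ was not tested.

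ZFP57 lies between MOG, 110 bases from its end on the opposite strand, and HLA-F, 41.6 kb from its start. HLA-F, a nonclassical MHC gene, rose from 3.74 ± 1.07 CPM (SD, n = 2) to 43.0 ± 5.78 CPM (SD, n = 4), a log2 change of 3.52 ± 0.19 (SE; edgeR, Benjamini-Hochberg adjusted p = 2.59e-08). MOG, a myelin gene, was low in both states, at 1.41 ± 0.515 and 3.88 ± 1.46 CPM (log2 change 1.45 ± 0.40; adjusted p = 0.0115).

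CBX3 overlaps HNRNPA2B1 on the opposite strand by 368 bases. HNRNPA2B1 fell from 2318 ± 106 to 1498 ± 95.7 CPM (log2 change −0.63 ± 0.09 SE), while CBX3 did not pass.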
